A study of Mus musculus with 8 samples.

Results

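The genes described here encode the proteasome, its regulators and its assembly factors. They are the genes whose symbol in the platform annotation begins with Psma, Psmb, Psmc, Psmd, Psme, Psmf or Psmg, leaving out Psmb8 and Psmb9. The rule found 47 of the 18193 genes that have a probe set carrying 1 symbol, and each gene was represented by its brightest such probe set. Of these 47 genes, 46 passed the filter on low signals: in at least 1 group, both arrays had to exceed their own 40th percentile. Psmb11, a catalytic subunit made in the cortical epithelium of the thymus, stayed between 4.37 and 4.71 log2 units on every array, below that floor of 5.21 to 5.28, and was not tested. Psma8 passed only through the RAW groups. Psme2 was not analysed here, because its probe set also carries the symbol Psme2b.

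Total RNA of 2 established mouse lines was measured on 8 Affymetrix arrays: RAW264 macrophages (called RAW) and CT26 colon tumour epithelial cells. The 4 groups were RAW cells co-cultured with CT26 cells, RAW cells alone, CT26 cells co-cultured with RAW cells, and CT26 cells alone, with no genetic change or drug named for any of them. In co-culture, RAW cells in a transwell insert were placed over CT26 cells in a well 8 hours after seeding, so that soluble molecules passed without contact, and the labels do not say how long the co-culture lasted. Each group had 2 arrays, 1 from each of 2 experiments, and each cell type was represented by 1 line. RAW cells were lysed on the insert and CT26 cells after trypsin, so harvest and line cannot be told apart.

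The proteasome degrades proteins tagged with ubiquitin and cuts them into peptides, some of which are presented on MHC class I molecules. Its core is a barrel with outer rings of alpha subunits, which gate the entrance, and inner rings of beta subunits, of which Psmb5, Psmb6 and Psmb7 carry the catalytic sites. A cap of ATPases (Psmc genes), which unfold the substrate, and of non-ATPase subunits (Psmd genes), which bind and remove ubiquitin, sits on the ends of the barrel. In immune cells and under interferon, Psmb8, Psmb9 and Psmb10 take the places of Psmb5, Psmb6 and Psmb7 in newly built particles called immunoproteasomes, and the PA28 activator made of Psme1 and Psme2 products can replace the cap.

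All values are log2 expression values, normalized by the authors with RMA, and array medians lay between 5.88 and 5.94. Between RAW alone and CT26 alone, all 12 macrophage markers were higher in RAW, by a median of 6.16 log2 units, and 6 of the 9 tested markers chosen for CT26 were lower in RAW alone. Krt8, Krt19 and Epcam, keratin and adhesion genes of epithelium, did not pass the test between the lines, and Cdh1 and Cldn7 were below the floor, so these 5 epithelial markers did not set CT26 apart from RAW. In the co-culture comparison of RAW, 0 of the 9 tested CT26 markers passed the test (limma) or had an unadjusted p under 0.05, and the summed level of all 11 was 60.2 on both co-culture arrays against 59.9 and 60.5 on the arrays of RAW alone. In the co-culture comparison of CT26, 0 of the 12 macrophage markers passed or had an unadjusted p under 0.05, and their summed level was 72.0 on both co-culture arrays against 71.6 and 72.7 in CT26 alone. None of the 3 tested lymphoid and endothelial markers passed in any comparison without a block. In these sums each marker counts with its log2 value.

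Proteasome genes were measured well above the array medians. The 45 members above the floor on all 8 arrays lay between 8.68 (Psmc3ip) and 13.85 (Psmb4) log2 units. Levels of different genes come from different probes and are not compared. The arrays were normalized to nearly the same distribution, so a change in RNA per cell common to all genes, and changes in the number of cells, cannot be told apart from no change.

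In RAW cells, 2 members stood above the rest in co-culture, Psmb10 and Psme1, and both belong to the set that interferon is known to induce. Psmb10, the catalytic subunit that takes the place of Psmb7, had 10.50 and 10.38 in RAW co-culture in experiments 1 and 2, against 9.82 and 9.58 in RAW alone. It had 9.40 and 9.37 in CT26 co-culture, against 9.40 and 9.42 in CT26 alone. Both RAW co-culture arrays were above both arrays of RAW alone. Both CT26 co-culture arrays were slightly below both arrays of CT26 alone, with differences of -0.0022 and -0.051 in experiments 1 and 2. The difference in RAW was 0.73 ± 0.13 log2 units (SE, n = 2 arrays a group), or 1.66-fold, with 0.67 in experiment 1 and 0.79 in experiment 2.

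Psme1, a subunit of the PA28 activator, which opens the gate of the core, had 12.19 and 12.25 in RAW co-culture, against 11.58 and 11.77 in RAW alone. In CT26 it had 11.59 and 11.52 in co-culture, against 11.47 and 11.52 alone. The RAW co-culture arrays were again the highest of the 8. The difference in RAW was 0.55 ± 0.12, or 1.46-fold, with 0.61 in experiment 1 and 0.48 in experiment 2.

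Whether these differences pass the test depends on how the experiments are treated. Without a block, 0 of 46 members passed an adjusted p of 0.05 in the RAW comparison, where 0.25% of all 13196 tested genes did, and the adjusted p was 0.133 for Psmb10 and 0.284 for Psme1. At an unadjusted p under 0.05 there were 2 of 46 members, against 694 of 13196 genes. With the experiment as a block in each line, Psmb10 rose at an adjusted p of 0.0066 and Psme1 at 0.0236. These were 2 of 46 members, in a fit that called 3.56% of all genes. With a block shared by both lines, Psmb10 passed (adjusted p = 0.0271) and Psme1 did not (adjusted p = 0.0631). The block per line leaves 2 residual degrees of freedom. Adgre1, a macrophage surface receptor, was the 1 macrophage marker of 12 that passed with it in this comparison. Its difference was -0.75 ± 0.13, where the SE is that of the fit with the block per line. The summed level of the 12 macrophage markers was 148.8 and 152.8 log2 units on the RAW co-culture arrays, against 150.9 and 153.9 in RAW alone, and its part in the result was not tested.

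**Figure D1:**
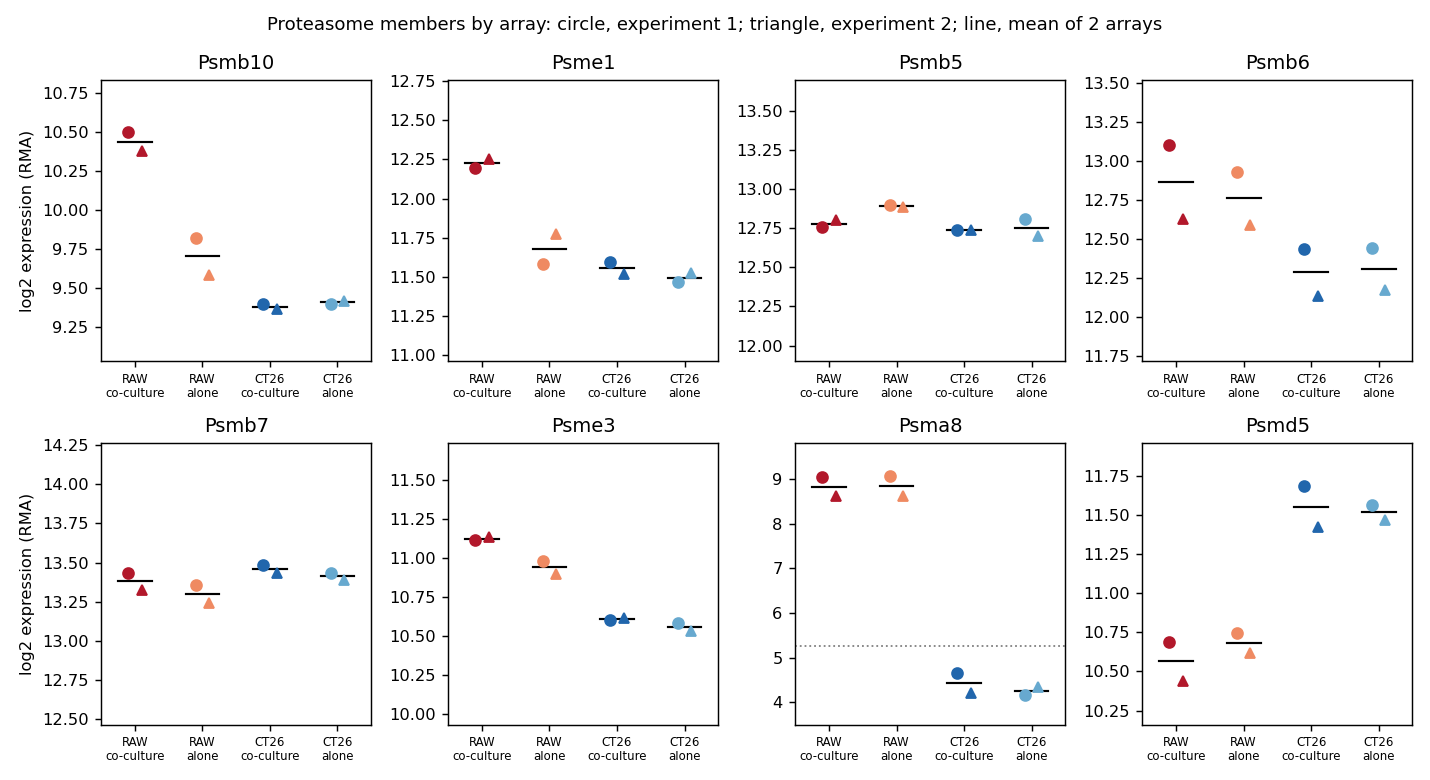
Log2 expression (vertical axis) of 8 genes in the 4 groups, with a circle for experiment 1, a triangle for experiment 2 and a line for the mean of 2 arrays. Psmb10 and Psme1 lie highest on the RAW co-culture arrays, at 10.38 to 10.50 and 12.19 to 12.25. Psma8 is above the dotted floor in RAW only, and its axis is wider than the 1.8 log2 units of the other panels.

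The RefSeq promoter windows of both genes are shown because these were the members that passed in RAW co-culture with the block per line. Each window (assembly GRCm38.p6) runs from 250 bases before to 50 bases after the annotated start, 5′ to 3′ on the gene's strand. The capitals in Psme1 mark the match to the core letters of the interferon-stimulated response element (GAAANNGAAA, searched on both strands), which lies on the opposite strand at bases 10 to 19 after the start. The Psmb10 window lies at chr8:105938343-105938642 on the minus strand and the Psme1 window at chr14:55578244-55578543 on the plus strand.
Psmb10: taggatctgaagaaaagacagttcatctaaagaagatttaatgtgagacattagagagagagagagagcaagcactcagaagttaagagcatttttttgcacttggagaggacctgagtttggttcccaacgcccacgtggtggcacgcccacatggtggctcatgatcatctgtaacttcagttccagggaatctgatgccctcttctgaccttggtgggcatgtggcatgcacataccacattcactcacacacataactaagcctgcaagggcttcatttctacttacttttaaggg
Psme1: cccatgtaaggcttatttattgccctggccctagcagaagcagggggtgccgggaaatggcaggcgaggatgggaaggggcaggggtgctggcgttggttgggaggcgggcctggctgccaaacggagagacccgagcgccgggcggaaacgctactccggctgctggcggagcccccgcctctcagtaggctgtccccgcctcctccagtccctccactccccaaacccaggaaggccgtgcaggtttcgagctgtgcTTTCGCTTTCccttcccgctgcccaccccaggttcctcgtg

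The Psmb10 window held no match to that core, to the letters of the gamma-activated site (TTCNNNGAA) or to the core of the antioxidant response element (TGACNNNGC). A window was available for 39 of the 47 members, in 42 windows. The interferon-stimulated core was in the windows of 5 members (Psmb3, Psmd4, Psmd9, Psme1 and Psmg4) and in 3.44% of all 32851 windows of that length. Of these 5 members, only Psme1 passed in RAW co-culture with the block per line. The gamma-activated letters were in the windows of Psmd2 and Psmg1 and in 8.3% of all windows. The antioxidant core, whose full element binds the factors that raise proteasome genes under oxidative or proteolytic stress, was in the windows of Psmb5, Psmb6, Psmc6, Psmd9, Psmd12 and Psme4 and in 12.4% of all windows. The 3 patterns share letters and can overlap, and a match is a match of letters only.

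The other catalytic subunits showed no change of that size in RAW. Psmb7, which Psmb10 displaces, had 13.44 and 13.33 in RAW co-culture, against 13.36 and 13.24 in RAW alone, a difference of 0.081 ± 0.11. Psmb6, the caspase-like subunit, had 13.10 and 12.63 in RAW co-culture, against 12.93 and 12.59 in RAW alone, a difference of 0.10 ± 0.22 with groups that overlapped. Psmb5, the chymotrypsin-like subunit and target of bortezomib, had 12.76 and 12.80 in RAW co-culture, against 12.90 and 12.89 in RAW alone. Both of its co-culture arrays were lower, by -0.11 ± 0.11 on average, and it did not pass the test with or without a block (adjusted p = 0.535 with the block per line).

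The immune subunits left out by the rule are given once, because the cell builds them into particles together with Psmb10. Psmb8 had 11.10 and 11.49 in RAW co-culture, against 10.63 and 10.78 in RAW alone, and 9.34 and 8.96 in CT26 co-culture, against 8.83 and 8.52 in CT26 alone. Psmb9 had 9.77 and 10.09 in RAW co-culture, against 9.16 and 9.42 in RAW alone, and 7.43 and 7.19 in CT26 co-culture, against 7.11 and 6.996 in CT26 alone. The co-culture arrays of both genes were the higher ones in both lines. The RAW differences were 0.59 ± 0.20 for Psmb8 and 0.64 ± 0.17 for Psmb9, and they passed with the block per line (adjusted p = 0.023 and 0.0113) and not without it (0.748 and 0.459). The CT26 differences of 0.47 ± 0.20 and 0.26 ± 0.17 passed neither test, with adjusted p = 0.466 and 0.809 with the block per line.

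The other activators and Psmf1 did not pass in RAW co-culture with or without a block. Psme3, the subunit of the nuclear PA28 gamma activator, had 11.11 and 11.13 in RAW co-culture, against 10.98 and 10.90 in RAW alone, a difference of 0.18 ± 0.11. Psme4, the PA200 activator, which is abundant in testis, had 11.03 and 10.80 in RAW co-culture, against 10.84 and 10.68 in RAW alone, a difference of 0.15 ± 0.14. Psmf1, a regulator first described as an inhibitor, had 10.32 and 10.24 in RAW co-culture, against 10.03 and 10.16 in RAW alone, a difference of 0.19 ± 0.12. With Psme1, all 4 genes of this class were higher in both experiments by the probe set that represents each. Only Psme1 passed, with the block per line. The further probe sets of Psmf1 above the floor were lower in RAW co-culture, at -0.17, -0.0097 and -0.21. Those of Psme4 had 0.19, 0.28 and -0.14, and that of Psme3 had 0.063.

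Across the whole set the RAW differences were small. In both experiments, 26 of 46 members (56.5%) were higher in co-culture, against 32.5% of all tested genes, and 7 (15.2%) were lower in both, against 29.1% of all. The median difference was 0.082 log2 units for the members and 0.0083 for all tested genes. Without Psmb10 and Psme1 the median of the members was 0.073, with 24 of 44 higher in both experiments. These genes are measured on the same arrays and do not count as independent observations. In this comparison 24 of 41 further probe sets of tested members above the floor had the sign of the one that represents their gene. Within pairs, the median over the members was 0.087 in experiment 1 and 0.071 in experiment 2. Without the RAW co-culture array of experiment 1 it was -0.019, a value that sets an array of experiment 2 against both arrays of RAW alone.

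By class, the median difference in RAW was 0.059 for the alpha ring, 0.091 for the tested beta subunits, 0.051 for the ATPases, 0.050 for the non-ATPase cap subunits, 0.18 for the activators with Psmf1 and 0.012 for the assembly factors. Outside the beta and activator classes, the largest differences with the same sign in both experiments were 0.21 ± 0.20 for Psma7, an alpha subunit, 0.15 ± 0.14 for Psmc4, an ATPase, 0.22 ± 0.33 for Psmd3, a scaffold subunit of the cap, and 0.25 ± 0.14 for Psmg1, a chaperone of alpha-ring assembly. Leaving out 1 array also breaks a pair for single genes. The difference of Psma7 changed sign, to -0.039, without the RAW co-culture array of experiment 1. That of Psmd3 did so without the RAW co-culture array of experiment 2 (-0.056) or the RAW alone array of experiment 1 (-0.034). The 44 members other than Psmb10 and Psme1 were read by the probe sets that represent them. Their differences ran from -0.18 (Psmd10, gankyrin, an assembly chaperone) to 0.25 (Psmg1). Their 95% confidence intervals with the block per line ran from -0.38 to 0.46, which bounds the changes of single genes under that fit. Without a block they ran from -0.90 to 1.02. Further probe sets above the floor reached -0.33 for Psmd11 and 0.28 for Psme4 in this comparison.

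**Figure D2:**
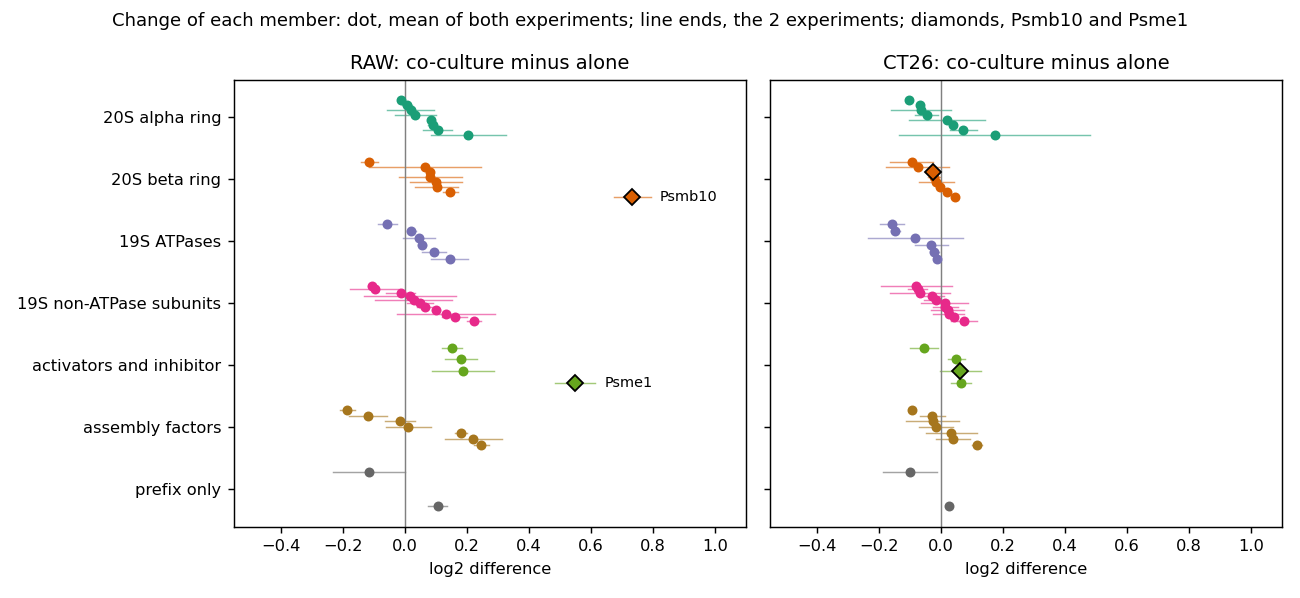
Log2 difference between co-culture and growth alone (horizontal axis) for each tested member, in RAW (left) and CT26 (right), by class. Each dot is the mean of both experiments and the line ends are the experiments. Psmb10 and Psme1, drawn as diamonds, stand at 0.73 and 0.55 in RAW, apart from the other 44 members, which lie between -0.18 and 0.25.

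In CT26 cells, proteasome genes showed no called change in co-culture. Without a block, 0 of 46 members had an unadjusted p under 0.05, against 107 of 13196 genes. Of the 46, 0 passed (limma), with 0% of all genes called. The count with the block per line was also 0, with 0% of all genes called. The median difference was -0.016 for the members and -0.012 for all tested genes. The members were higher in both experiments in 10 cases, which is 21.7% against 23.8% of all genes, and lower in both in 14 cases, which is 30.4% against 30.1% of all genes. Differences ran from -0.16 (Psmc1, an ATPase) to 0.17 (Psma8, below the floor in CT26).

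None of the 6 ATPases was higher in both CT26 experiments and 4 were lower in both, with a class median of -0.057. The class medians were -0.013 for the alpha ring, -0.019 for the beta subunits, 0.013 for the non-ATPase subunits, 0.056 for the activators with Psmf1 and -0.016 for the assembly factors. The largest changes with the same sign in both experiments were -0.10 ± 0.12 for Psma5, -0.095 ± 0.21 for Psmb2, -0.16 ± 0.26 for Psmc1, -0.075 ± 0.12 for Psmd6, 0.065 ± 0.12 for Psmf1 and 0.12 ± 0.17 for Psmg4. All were smaller than their standard errors. Without the CT26 co-culture array of experiment 2, Psmb2 was at 0.086, Psmc1 at 0.051 and Psmf1 at -0.0030. Without the CT26 alone array of experiment 1, Psmb2 was at 0.016 and Psmc1 at 0.013. With the block per line, the 95% confidence intervals ran from -0.36 (Psmb2) to 0.31 (Psmg4) for the members other than Psma8.

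Psmb5, Psmb6 and Psmb7 did not pass between the CT26 groups, with differences of -0.014, -0.023 and 0.047. Psmb5 had 12.74 and 12.74 in CT26 co-culture, against 12.81 and 12.70 in CT26 alone. Psmb6 had 12.44 and 12.13 in CT26 co-culture, against 12.44 and 12.18 in CT26 alone. Psmb7 had 13.48 and 13.43 in CT26 co-culture, against 13.43 and 13.39 in CT26 alone. The groups of Psmb5 and Psmb6 overlapped, and for Psmb7 the co-culture arrays were higher within each experiment, by 0.050 and 0.043.

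Nor did the other activators and Psmf1 pass in CT26. Psme3 had 10.60 and 10.61 in CT26 co-culture, against 10.58 and 10.54 in CT26 alone. Psme4 had 11.01 and 10.82 in CT26 co-culture, against 11.02 and 10.92 in CT26 alone. Psmf1 had 10.35 and 10.49 in CT26 co-culture, against 10.32 and 10.39 in CT26 alone. Their differences of 0.050, -0.054 and 0.065 were smaller than their standard errors.

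The co-culture effect in RAW was set against that in CT26 by the interaction of line and culture. No member passed without a block, where 1 gene of all (0.00758%) was called. An unadjusted p under 0.05 was reached by 2 members, against 328 of 13196 genes. With the block per line 0 members passed as well, where 0.743% of all genes were called. In that fit 3 members had an unadjusted p under 0.05, against 1508 of 13196 genes. The largest difference of effects was that of Psmb10, 0.76 ± 0.18, with an adjusted p of 0.821 without a block and 0.0515 with the block per line. For Psme1 it was 0.48 ± 0.17, with an adjusted p of 0.197 with the block per line. The median was 0.10 for the members and 0.020 for all genes. A difference of the co-culture effect between the lines was therefore not shown for any member.

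The lines were also compared when grown alone. Without a block, 6 of 46 members (4 higher in RAW, 2 lower) passed between RAW alone and CT26 alone, with Psma8, which entered the fit through RAW, among the 4, against 34.6% of all genes (17% higher and 17.6% lower). The median absolute difference was 0.20 log2 units for the members and 0.35 for all tested genes. With the block per line 21 members passed (11 higher in RAW, 10 lower), against 58.6% of all genes.

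Psma8, an alpha subunit described in testis that can take the place of Psma7, had the largest difference. It had 9.06 and 8.62 in RAW alone, against 4.17 and 4.33 in CT26 alone, where it was below the floor. In co-culture it had 9.04 and 8.61 in RAW, against 4.65 and 4.20 in CT26. Grown alone, RAW had at least an 11.9-fold higher level, computed against the floor of the CT26 arrays. In co-culture it was at least 11.7-fold higher in RAW. No p is given for these bounds, since the gene passed the filter through RAW alone. It was measured by 1 probe set, and within RAW its co-culture difference was -0.013 ± 0.23.

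Psmd5 is a chaperone that binds the ATPase Psmc2 product during assembly of the cap. By the probe sets that represent the genes, it had the largest lower value in RAW. It had 10.75 and 10.62 in RAW alone, against 11.57 and 11.47 in CT26 alone, a difference of -0.84 ± 0.15 (adjusted p = 0.0047). In co-culture it had 10.69 and 10.44 in RAW, against 11.68 and 11.42 in CT26, a difference of -0.99 ± 0.15 (adjusted p = 0.00217). Neither set of RAW arrays overlapped the CT26 arrays. Psmc6, an ATPase, had -0.34 between the lines alone and -0.22 in co-culture by the probe set that represents it. Its further probe sets above the floor had -1.05 and -0.77 between the lines alone, and -0.96 and -0.98 in co-culture.

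The other members called between the lines grown alone were Psmd7 on the lower side and Psmc3ip, Psme3 and Psmd11 on the higher. Psmd7, the scaffold partner of the deubiquitinase Psmd14, had 11.55 and 11.16 in RAW alone, against 11.98 and 11.80 in CT26 alone (-0.54 ± 0.16, adjusted p = 0.0358). Psmd11, a cap subunit needed for particle assembly, had 13.10 and 13.15 in RAW alone, against 12.83 and 12.66 in CT26 alone (0.38 ± 0.12, adjusted p = 0.0435). For Psme3 the difference between RAW alone and CT26 alone was 0.38 ± 0.11 (adjusted p = 0.0302). Psmc3ip shares the prefix but encodes a recombination factor of meiosis, and it had 9.39 and 9.23 in RAW alone, against 8.88 and 8.70 in CT26 alone (0.52 ± 0.12, adjusted p = 0.0158).

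These 4 calls are less settled than that of Psmd5 when 1 array was left out. The difference of Psmd5 then ranged from -0.90 to -0.77. Psmd7, Psmd11 and Psme3 did not pass when all probe sets of a gene were averaged (-0.17, 0.13 and 0.14, with adjusted p of 0.242, 0.421 and 0.617). These averages take in probe sets below the floor. Psmd5 has 1 probe set, so averaging could not change its value. When 1 array was left out, the adjusted p ranged from 0.0648 to 0.239 for Psmd11, from 0.0172 to 0.178 for Psmd7, from 0.0475 to 0.153 for Psme3 and from 0.0256 to 0.112 for Psmc3ip. The second probe set of Psmd7 above the floor had -0.078 and that of Psme3 0.10, whereas the second of Psmc3ip had 0.66. From brightest to dimmest, the further probe sets of Psmd11 above the floor had 0.27, 0.44, 0.13, -0.32, 0.16 and 0.021. Over all tested members, 34 of 41 further probe sets above the floor had the sign of the one that represents their gene between the lines alone. That number was 24 of 41 for RAW co-culture, 28 for CT26 co-culture and 25 for the interaction.

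Some catalytic and ring subunits also differed between the lines once the experiment was a block in each line, with the same sign in both experiments. Psmb6 was higher in RAW alone by 0.45 (adjusted p = 0.0032), Psma1 by 0.45 (0.0058) and Psma4 by 0.43 (0.0035). Psmb1, a structural beta subunit, was lower by -0.37 (0.0088) and the ATPase Psmc4 by -0.40 (0.0053). Without a block, none of these 5 passed. Psmb10 was higher in RAW alone by 0.29 ± 0.13, with an adjusted p of 0.123 without a block and 0.0212 with the block per line.

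**Figure D3:**
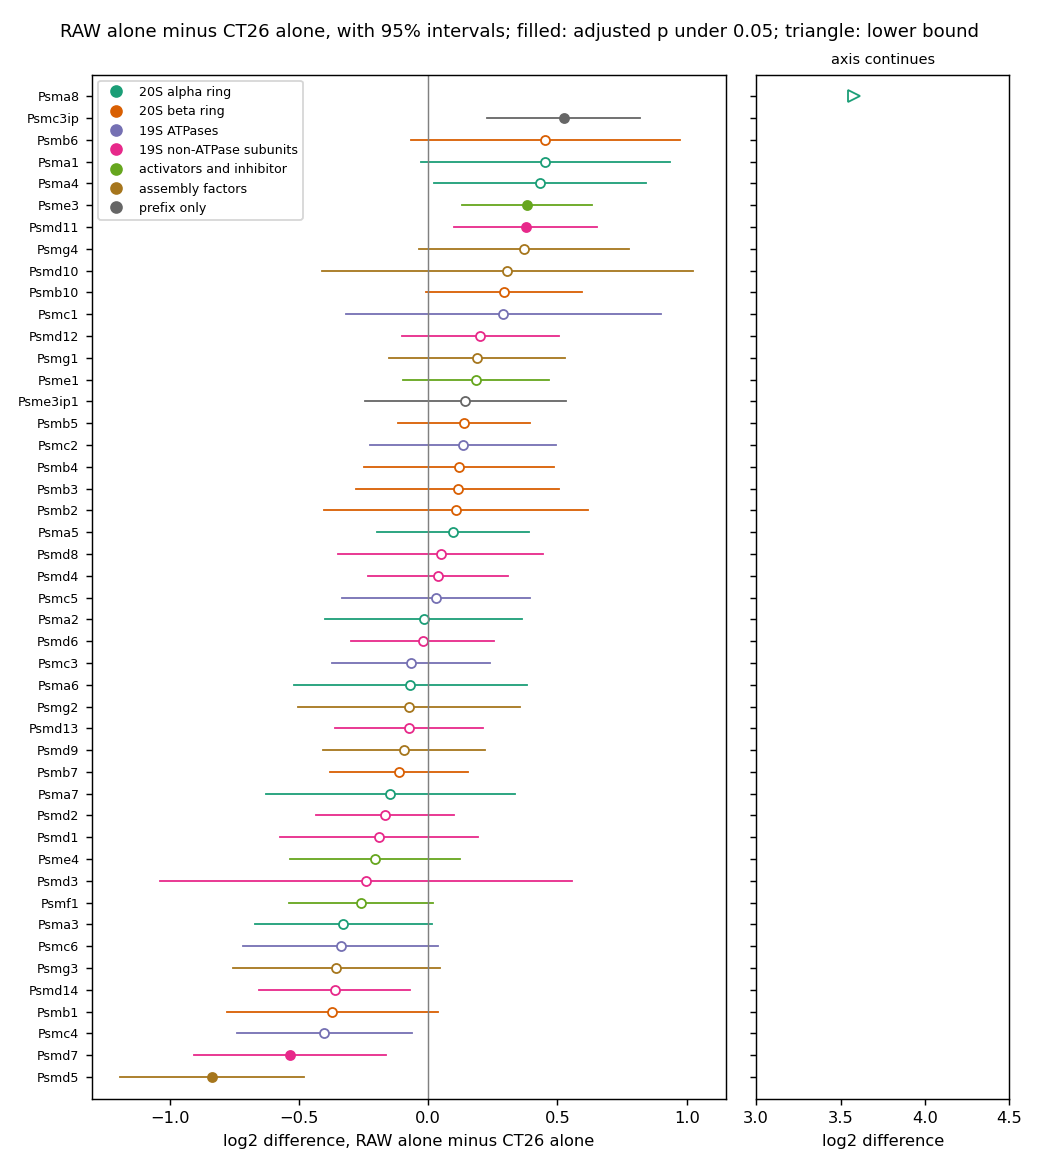
Log2 difference between RAW and CT26, both alone (horizontal axis), for each tested member with its 95% confidence interval in the fit without a block. Filled points passed an adjusted p of 0.05, and Psmd5 is the lowest at -0.84. Psma8, below the floor in CT26, is drawn without an interval as an open triangle at its lower bound of 3.58, on the right-hand part of the axis.

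Within co-culture, 7 of 46 members passed between RAW and CT26 without a block (6 higher in RAW, 1 lower), against 34.8% of all genes (17.7% higher and 17% lower). A block per line gave 19, against 58% of all genes. Of the 7, the higher ones were Psma8, which entered through RAW, and Psmb10, Psme1, Psme3, Psmc3ip and Psmg1, and the lower one was Psmd5. Psmb10 was higher in RAW co-culture than in CT26 co-culture by 1.05 ± 0.13, or 2.07-fold (adjusted p = 0.0007), and Psme1 by 0.67 ± 0.12 (adjusted p = 0.00457).

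Psme3 was higher by 0.51 ± 0.11 (adjusted p = 0.00898). With all its probe sets averaged, it was higher by 0.29 and did not pass with limma (adjusted p = 0.301). Its second probe set above the floor had 0.16. Psmc3ip, with 9.47 and 9.37 in RAW co-culture against 8.69 and 8.68 in CT26 co-culture, was higher by 0.73 ± 0.12 (adjusted p = 0.00376). Psmg1 had 11.42 and 11.28 in RAW co-culture, against 10.94 and 10.84 in CT26 co-culture, a difference of 0.46 ± 0.14 (adjusted p = 0.0452). The adjusted p of Psmg1 ranged from 0.0534 to 0.187 when 1 array was left out. Psmd7 had 11.42 and 11.33 in RAW co-culture, against 11.82 and 11.83 in CT26 co-culture, a difference of -0.45 ± 0.16 with an adjusted p of 0.065 without a block and 0.00868 with the block per line. Psmd11 had 13.01 and 13.03 in RAW co-culture, against 12.78 and 12.69 in CT26 co-culture, a difference of 0.29 ± 0.12 with an adjusted p of 0.102 without a block and 0.0207 with the block per line. The comparison between the lines in co-culture shares its RAW arrays with the RAW co-culture comparison, so the 2 sets of values are not independent.

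Genes that work with the proteasome but lie outside the prefixes were read from a list of partners. Of 11 tested partners, 0 passed in the RAW co-culture comparison and 0 in the CT26 one, with or without a block per line, and 0 had an unadjusted p under 0.05 (limma). Their median in RAW was 0.057. Between the lines grown alone 3 of 11 were lower in RAW and 0 higher without a block, against 34.6% of all genes. A block per line gave 4 lower and 2 higher, against 58.6% of all genes, and the 2 were Usp14 and Zfand5. Pomp, the chaperone that matures the beta rings, had 12.57 and 12.32 in RAW alone, against 13.40 and 13.19 in CT26 alone (-0.85 ± 0.15, adjusted p = 0.00469). Ublcp1, a phosphatase that acts on the proteasome, was lower by -0.80 ± 0.17 (adjusted p = 0.0092) and Uchl5, a deubiquitinase of the cap, by -0.42 ± 0.13 (adjusted p = 0.0397).

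In co-culture Pomp and Ublcp1 were lower in RAW than in CT26 by -0.78 and -0.62, and Usp14, the other cap deubiquitinase that releases ubiquitin, was higher by 0.70 ± 0.18 (adjusted p = 0.0244). Of 9 tested genes of ubiquitin activation, p97 and shuttle factors, 0 passed in either co-culture comparison or between the lines alone without a block (limma), with 0, 0 and 2 at an unadjusted p under 0.05. Between the lines alone 34.6% of all genes passed in that fit. With the block per line 6 of these 9 passed there (2 higher in RAW, 4 lower), against 58.6% of all genes, and 0 passed in either co-culture comparison. Rad23b, a shuttle that carries ubiquitinated substrates to the proteasome, passed between the lines in co-culture (0.58 ± 0.14 higher in RAW, adjusted p = 0.0189).

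Proteasome genes also differed between the experiments within each group, which bears on how the errors above are read. In experiment 2 minus experiment 1, the median of the members was -0.18 in RAW co-culture, -0.16 in RAW alone, -0.11 in CT26 co-culture and -0.11 in CT26 alone. The medians of all tested genes were -0.011, 0.0056, 0.020 and 0.025 in the same groups. All 8 alpha subunits were lower in experiment 2 in both RAW groups and in CT26 co-culture. Among them, Psma8 was below the floor in CT26, so its shift there is not a measured one. All 7 assembly factors were lower in both RAW groups.

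In all 4 groups, 29 of 46 members (63.0%) were lower in experiment 2, against 21.8% of all tested genes. The exceptions that were higher in experiment 2 in all 4 groups were Psmd3, Psmd1, Psmc5 and Psme3ip1, the last of which encodes a partner of Psme3. Of these 4, Psmd3 had the largest shift, at 0.56 in RAW co-culture, 0.51 in RAW alone, 0.69 in CT26 co-culture and 0.58 in CT26 alone. The median absolute shift of the members was 0.22 in RAW co-culture and 0.19 in RAW alone. For all tested genes it was 0.22 in both groups, so the members did not shift by more than other genes. The median absolute co-culture difference in RAW was 0.10 for the members and 0.11 for all tested genes. In the fit without a block the shift is part of the error. The median standard error of a member in the RAW comparison was 0.152 without a block and 0.0846 with the block per line.

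**Figure D4:**
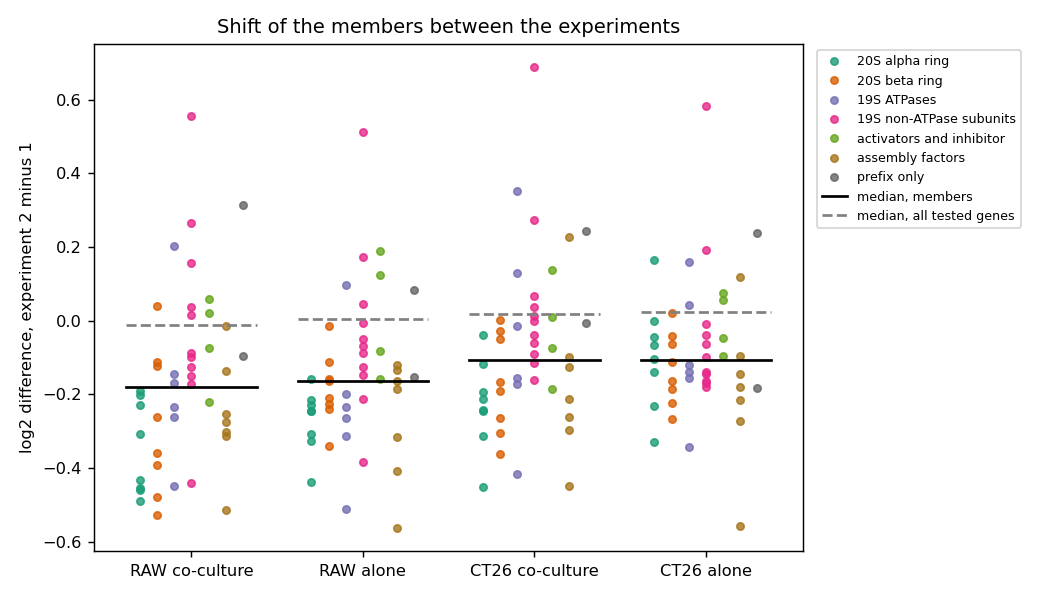
Log2 difference of experiment 2 minus experiment 1 (vertical axis) for each tested member in each of the 4 groups. The medians are -0.18 in RAW co-culture, -0.16 in RAW alone, -0.11 in CT26 co-culture and -0.11 in CT26 alone, and 29 of 46 members are below 0 in all 4 groups.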

How the data were processed

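Total RNA from 8 samples was read on Affymetrix arrays. The deposited values are log2 expression values, made by the authors with RMA (affy), according to the submitters' processing notes, which give no versions. There were 45101 probe sets. The 64 controls were left out, 34945 of the rest had 1 symbol, 932 had several and 9160 were not listed. The members and gene lists were chosen with earlier results of these data known. All 47 members matched the RefSeq gene table (GRCm38.p6) by Entrez identifier.

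Group means of 13196 genes were fitted over the 8 arrays with limma 3.58.1 in R 4.3.3 (two-sided, Benjamini-Hochberg over all genes, threshold 0.05). The fit had 4 residual degrees of freedom, and errors of differences are its standard errors unless another fit is named. The fit was checked on simulated data with independent arrays and no shift between the experiments. That check cannot decide between the fits with and without a block. The number of arrays limits the precision, and 2 arrays against 2 cannot give a two-sided exact permutation p below 0.333. The labels do not say whether samples of 1 group came from separate stocks of cells.

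Replicate numbers mark the 2 occasions of the experiment, per the labels. Deviations from the group means of same-numbered arrays correlated at 0.765 within RAW, 0.754 within CT26 and 0.484 to 0.561 between the lines, so the numbers pair the samples. A block common to both lines left 3 residual degrees of freedom, and one per line left 2.

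Values on every array are given for members called in a co-culture contrast or its interaction, for the catalytic subunits and activators, and for the up to 4 called members per direction that differ most between the lines alone. In each class, the member that changed most with the same sign in both experiments is also named. Alternatives were the blocks, no filter on low signals, a stricter filter, all probe sets averaged, cyclic loess, a variance trend and leaving out each array. Leaving out Psmc3ip and Psme3ip1, which share only the prefix, was chosen after seeing the data, and left 5 called members between the lines alone and 6 in co-culture.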

Additional observations from a re-analysis of the deposited data

Results flagged for a closer look

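For 10 of 46 members (21.7%) the co-culture difference had one sign in both RAW experiments and the opposite sign in both CT26 experiments, against 14.2% of all tested genes. In each of these 10 the RAW differences were above 0 and the CT26 differences below 0. The co-culture effect in RAW minus that in CT26 was 0.76 for Psmb10, 0.13 for Psmb6, 0.29 for Psmc4, 0.18 for Psmd6 and 0.21 for Psme4, on the log2 scale. It was 0.15 for Psma2, 0.15 for Psma3, 0.069 for Psmc2, 0.12 for Psmc6 and 0.21 for Psmc3ip. Psmb10 differed by 0.67 and 0.79 in RAW, against -0.0022 and -0.051 in CT26, so in CT26 the sign rests on values near 0. Psmc4, an ATPase of the cap, differed by 0.086 and 0.21 in RAW, against -0.13 and -0.16 in CT26. None of the 10 passed the test of the interaction with limma. Adjusted p was 0.821 for Psmb10 and 1.00 for the other 9 without a block. With the block per line it was 0.0515 for Psmb10 and 0.421 to 0.855 for the other 9.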

How the results depend on the processing

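With the replicate block shared by the lines, 1 member was called in RAW co-culture, 19 between the lines alone and 18 between the lines in co-culture. With the replicate block per line these counts were 2, 21 and 19, and the block changed no other count of members. Averaging all probe sets gave 11 calls between the lines in co-culture. The median difference in RAW co-culture was 0.051 with probe sets averaged and 0.055 with cyclic loess. In CT26 co-culture it was 0.012 with cyclic loess, against -0.016. The median interaction was 0.073 with probe sets averaged and 0.053 with cyclic loess. Between the lines alone the median was 0.0996 with probe sets averaged and 0.079 with cyclic loess.

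Leaving out 1 array breaks a pair, so these values include part of the shift between the experiments. Leaving out 1 array at a time gave 0 to 0 calls in RAW co-culture, CT26 co-culture and the interaction, 2 to 4 between the lines alone, and 5 to 7 in co-culture. Medians ranged from -0.019 to 0.19 in RAW, from -0.074 to 0.045 in CT26, from -0.00081 to 0.20 for the interaction, from 0.011 to 0.089 between the lines alone and from 0.016 to 0.23 in co-culture. Single genes ranged from -0.039 to 0.45 for Psma7 and from -0.056 to 0.50 for Psmd3 in RAW. In CT26 they ranged from -0.28 to 0.086 for Psmb2, from -0.37 to 0.051 for Psmc1 and from -0.0030 to 0.13 for Psmf1. Psmg4 in CT26 was -0.024 with probe sets averaged. The cause of other changes was not tested.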
